A study of Mus musculus with 4 samples.

Results

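The TRBV genes are the variable segments of the T cell receptor beta chain, and this account follows their use in 4 RNA-seq libraries of human blood CD8+ T cells. Members were the rows on chromosome 7 whose gene name starts with TRBV, 59 of the 64253 rows in each count file, and no measured value entered that choice. The libraries came from flow-sorted, CD11a-high CD8+ T cells of patients given an antibody that blocks PD-1, 4 doses 3 weeks apart making a cycle. They were a responder after therapy, a non-responder after therapy, a responder before therapy and a non-responder before therapy, 1 library each. All were sorted for the same markers from peripheral blood. Both titles given to the pre-therapy samples hold the tag PD-1pos, and whether this was a gate is not stated. The treatment text places every collection after a cycle, which goes against the group labels of these samples. The study names 2 cohorts, and no label ties a library from after therapy to the patient of a library from before it. The organism field names mouse, while the rows are human genes on hg38. With 1 library in each group, no difference between 2 libraries has a replicate check, and none below has a p-value unless the additive model is named.

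During T cell development in the thymus, a beta chain gene is assembled by joining 1 variable segment to a diversity and a joining segment, and splicing then attaches a constant region. A mature T cell and all its daughters keep the same assembled gene, so a segment's share of the TRBV reads reflects how many cells use it and how much receptor RNA each holds, which bulk reads cannot tell apart. Antigen-experienced CD8+ T cells in blood often contain expanded clones, and the use of segments is then uneven. Most of the segments can encode a receptor chain. Others are pseudogenes, or open reading frames that are not known to give a working chain.

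The locus runs from TRBV1 through the variable segments to a pair of clusters with diversity, joining and constant genes, and TRBV30 lies past the last constant gene. Among the 59 rows, 41 are commonly listed as functional, 6 as open reading frames only and 12 as pseudogenes. In 57 rows the gene model spans 270 to 868 bases, the size of a variable segment with its leader exon. TRBV25-1 (ENSG00000211751) spans 122402 bases, chromosome 7: 142670740 to 142793141 on hg38, and TRBV28 (ENSG00000211753) spans 72596 bases, chromosome 7: 142720660 to 142793255. Both models run past TRBV29-1, which ends at 142740894, and stop before TRBJ2-1, which starts at 142796365. In the order of the locus, that stretch is where the first joining cluster and the constant gene TRBC1 lie. The row named TRBC1 in the files stood on an alternate contig and held 0 counts in all 4 libraries. The annotated lengths of TRBV25-1 and TRBV28 were 1181 and 1064 bases, against 270 to 652 bases for the other rows. Counts in these 2 rows can therefore include reads of a constant region shared by many receptors, and the files do not separate them.

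These 2 rows held most of the TRBV counts in every library. TRBV28 took 38.3% of all TRBV counts in the responder and 40.7% in the non-responder after therapy, and 38.7% in the responder and 42.8% in the non-responder before therapy. TRBV25-1 took 31.3% in the responder and 32.8% in the non-responder after therapy, and 33.3% in the responder and 35.2% in the non-responder before therapy. Their ratio, TRBV25-1 to TRBV28, stayed between 0.806 and 0.861 in the 4 libraries, whereas the shares of many other segments differed several-fold between libraries. Together they left 30.4%, 26.5%, 27.9% and 22.0% of TRBV counts to the other segments, for the responder and non-responder after therapy and the responder and non-responder before therapy. In the following, a share is a percentage of the counts of these other 57 segments unless all TRBV counts are named. Multiplying it by the fraction just given for the library returns the share of all TRBV counts.

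**Figure D1:**
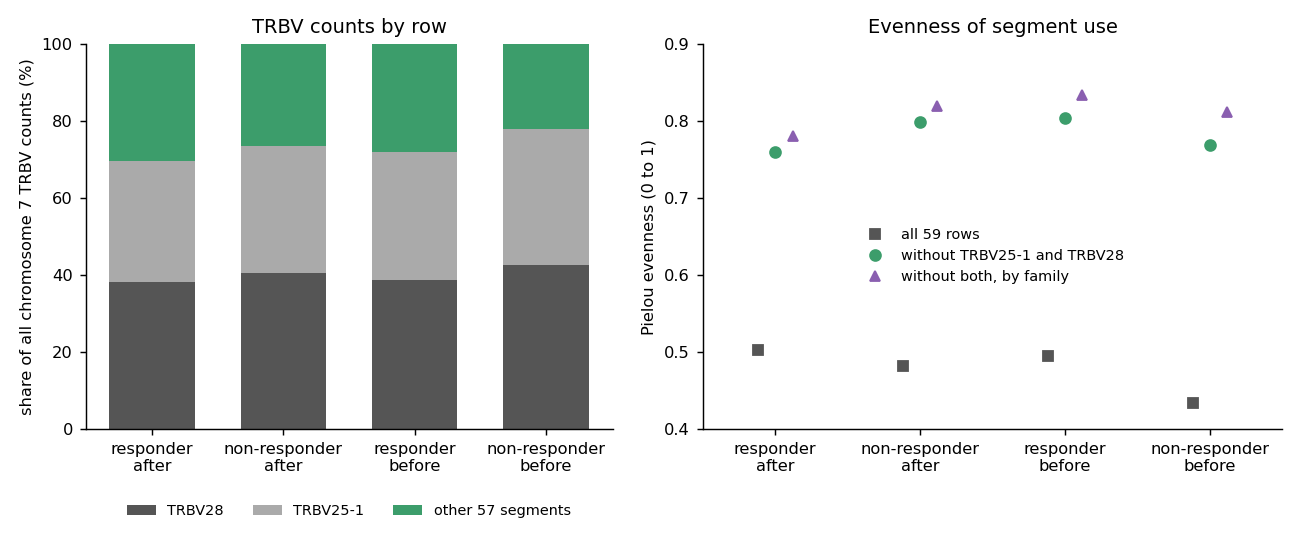
Left, stacked bars of the share (%) of all chromosome 7 TRBV counts held by TRBV28, TRBV25-1 and the other 57 segments in each of the 4 libraries. Right, Pielou evenness (0 to 1, axis cut at 0.4 and 0.9) over all 59 rows (squares), without TRBV25-1 and TRBV28 (circles) and by family without both (triangles), 1 point per library. The responder after therapy is the highest square, at 0.503, and the lowest circle, at 0.759.

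The libraries held 129773591 counts in the responder and 115446087 in the non-responder after therapy, and 78912300 in the responder and 65500644 in the non-responder before therapy. The 57 segments held 47629, 27451, 50672 and 28431 of these in the same order of libraries, which is 377, 246, 612 and 428 CPM (counts scaled to library size with TMM factors). A count of 0 allows a share of up to 0.0063%, 0.0109%, 0.00592% and 0.0106% (3 counts of the total), and these limits, like all intervals here, cover counting error only. CD8A lay between 850 and 1576 CPM, and all 5 CD8 T cell markers (CD3D, CD3E, CD3G, CD8A and CD8B) were counted in every library. CD4 stood at 94.9 CPM in the non-responder after therapy and at 4.50 to 11.6 CPM in the other 3 libraries. The summed level of 6 monocyte markers, all with counts in each library, was 1578 CPM in the responder after therapy, 7488 CPM in the non-responder after therapy, 80.5 CPM in the responder before therapy, then 129 CPM in the non-responder before therapy. Over the 4 libraries the summed markers of other cells ranged from 413 to 540 CPM for gamma-delta T cells and 117 to 250 CPM for NK cells. The ranges were 36.8 to 79.2 CPM for B cells, 6.13 to 76.8 CPM for platelets and 3.72 to 8.99 CPM for regulatory T cells. Within the gamma-delta list, TRDC ranged from 25.1 CPM in the non-responder to 94.8 CPM in the responder, both after therapy. TRGC1 was ordered the other way there, at 246 and 191 CPM. The part of these cells in the TRBV results was not tested.

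A different segment led in each library. TRBV4-2 led in the responder after therapy, TRBV19 in the non-responder after therapy, TRBV7-9 in the responder before therapy and TRBV10-3 in the non-responder before therapy. The same 4 segments led when counts were divided by annotated length.

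TRBV4-2 (ENSG00000211745, chromosome 7: 142345421 to 142345985) held 17.5% (Wilson 95% interval 17.2 to 17.9) in the responder and 2.24% (2.07 to 2.42) in the non-responder after therapy, and 3.83% in the responder and 4.66% in the non-responder before therapy. It stood high in 1 library and between 2% and 5% in the rest. TRBV6-1 behaved likewise, with 14.4% in the responder and 2.28% in the non-responder after therapy, and 0.864% in the responder and 0.570% in the non-responder before therapy. TRBV6-5 held 8.75% in the responder and 2.56% in the non-responder after therapy, and 2.00% in the responder and 3.07% in the non-responder before therapy. These 3 segments made up 40.7% of the responder library after therapy.

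TRBV19 (ENSG00000211746, chromosome 7: 142618849 to 142619532), a segment well known from receptors that recognise an influenza matrix peptide, was among the 5 most used segments in all 4 libraries. It held 8.25% in the responder and 18.9% (18.5 to 19.4) in the non-responder after therapy, and 6.05% in the responder and 9.57% in the non-responder before therapy. Both responder libraries lay below both non-responder libraries. Its ratio of responder to non-responder was -1.20 on the log2 scale after therapy (interval -1.26 to -1.14) and -0.66 before therapy (-0.73 to -0.59). TRBV19 has a long model of 552 bases, and per length it ranked 4th, 1st, 7th and 5th in the same order of libraries.

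TRBV7-9 (ENSG00000278030, chromosome 7: 142529290 to 142529762) held 4.63% in the responder and 5.70% in the non-responder after therapy, and 15.2% (14.9 to 15.5) in the responder and 4.10% in the non-responder before therapy. The value of the responder before therapy stood alone. The related TRBV7-3 was also highest there, at 4.58%, against 1.39% in the non-responder before therapy, while it held 0.754% in the responder and 0.568% in the non-responder after therapy. TRBV29-1 held 2.90% in the responder and 6.12% in the non-responder after therapy, and 9.23% in the responder and 0.988% in the non-responder before therapy. The non-responder before therapy was the library with little TRBV29-1.

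TRBV10-3 (ENSG00000275791, chromosome 7: 142544212 to 142544685) held 1.20% in the responder and 1.65% in the non-responder after therapy, and 2.18% in the responder and 13.2% (12.8 to 13.6) in the non-responder before therapy. TRBV5-1 was also highest in that library, with 3.73% in the responder and 3.02% in the non-responder after therapy, and 3.00% in the responder and 11.998% in the non-responder before therapy. TRBV12-3 held 1.096% in the responder and 1.62% in the non-responder after therapy, and 1.09% in the responder and 8.43% in the non-responder before therapy. TRBV12-3 and TRBV12-4 are near-identical, and how the authors' counting divided their reads is not known. TRBV12-4 held 1.35% to 3.71%, also with its highest value in the non-responder before therapy. TRBV27 held 2.56% in the responder and 4.50% in the non-responder after therapy, and 6.65% in the responder and 9.43% in the non-responder before therapy, so both libraries from after therapy lay below both from before it.

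**Figure D2:**
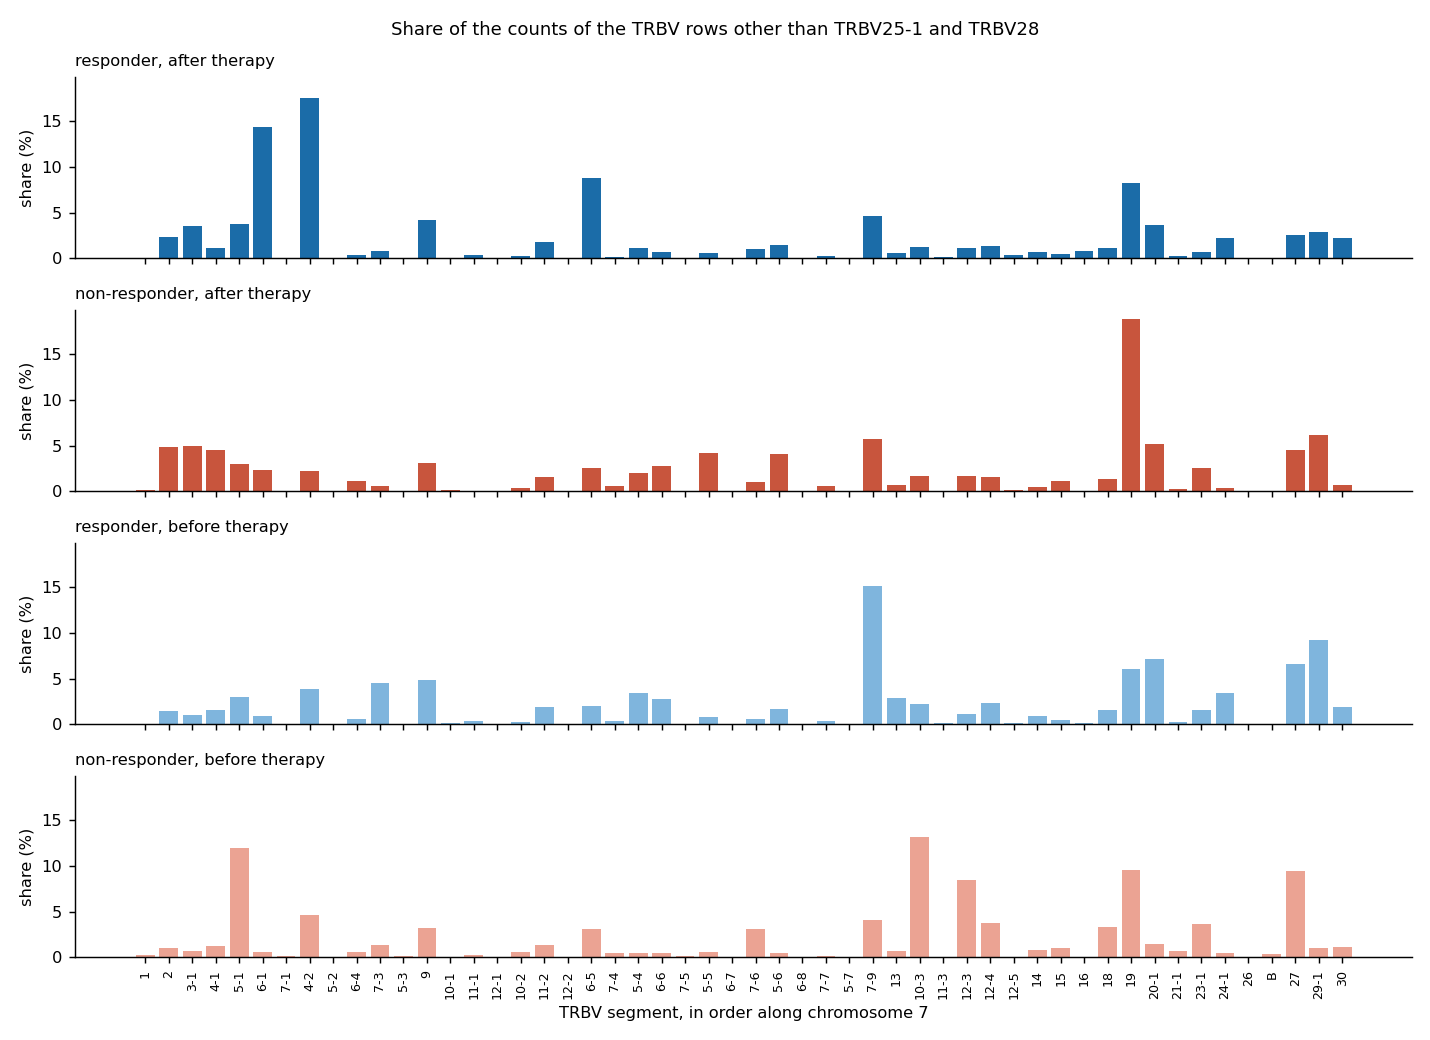
Share (%) of the counts of the TRBV rows other than TRBV25-1 and TRBV28, by segment in order along chromosome 7, for the 52 of 57 segments with a count in any library. There is 1 panel per library, and the tallest bars are TRBV4-2 at 17.5% and TRBV6-1 at 14.4% in the responder after therapy, TRBV19 at 18.9% in the non-responder after therapy, TRBV7-9 at 15.2% in the responder before therapy, and TRBV10-3 at 13.2% in the non-responder before therapy.

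Evenness was measured as Pielou's index, the Shannon entropy of the shares divided by its highest possible value, with the same number of segments in each library. Over the 57 segments, of which 52 had a count somewhere, it was 0.759 (counting interval 0.757 to 0.762) in the responder and 0.799 (0.796 to 0.802) in the non-responder after therapy, and 0.803 (0.801 to 0.805) in the responder and 0.769 (0.766 to 0.772) in the non-responder before therapy. The responder was less even than the non-responder after therapy and more even before it. The effective number of segments, the inverse Simpson index, was 12.7 in the responder and 15.4 in the non-responder after therapy, and 16.8 in the responder and 14.5 in the non-responder before therapy. It gave the same direction in both pairs. The 5 most used segments held 53.6% of counts in the responder and 40.9% in the non-responder after therapy, and 44.3% in the responder and 52.6% in the non-responder before therapy.

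Over all 59 rows the index was 0.503 in the responder and 0.482 in the non-responder after therapy, and 0.495 in the responder and 0.435 in the non-responder before therapy. The direction after therapy was thus turned by TRBV25-1 and TRBV28, with a difference of 0.0211 with these rows (0.0040 per annotated length) and -0.0400 without them. In the responder, after minus before therapy gave 0.00733 with these rows and -0.0440 without them, and with these rows it also turned, to -0.00398, when counts were divided by annotated length. In the non-responder the same difference was 0.0471 with these rows and 0.0305 without them. Without them it was 0.0469 over functional segments and 0.0078 by family. Before therapy, responder minus non-responder was 0.0609 with these rows and 0.0344 without them, or 0.0219 by family without them. With 1 library in each group, how far such values vary between patients of a group cannot be told.

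**Figure D3:**
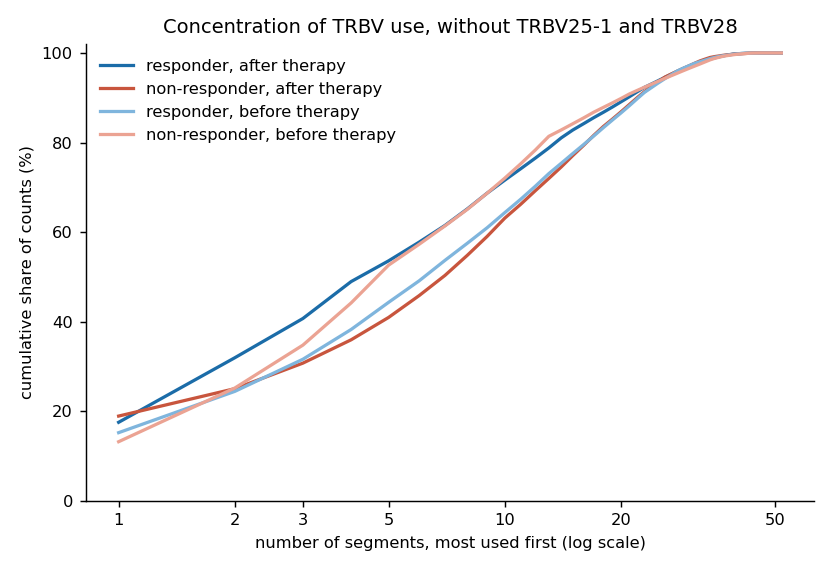
Cumulative share (%) of the counts of the 57 segments against the number of segments taken, most used first (log scale), 1 line per library. At 5 segments the lines stand at 53.6% in the responder and 40.9% in the non-responder after therapy, and at 44.3% in the responder and 52.6% in the non-responder before therapy.

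Responder libraries were next set against non-responder libraries at each time. On the TMM CPM scale, and among rows with at least 50 counts in either library, 11 of 41 TRBV rows had a 2-fold or larger excess and 5 a 2-fold or larger deficit in the responder after therapy. Of all genes passing the same minimum, 10.4% were higher and 16.8% lower by that much. Before therapy 21 of 44 TRBV rows had such an excess in the responder, against 18.7% of all genes, and 6 were lower, against 14% of all genes. The summed level of the 57 segments was itself higher in the responder at both times, at 377 against 246 CPM after therapy and 612 against 428 CPM before it. By share, which removes that offset, 9 segments passed 2-fold upward and 12 downward in the responder after therapy, and 13 upward and 10 downward before therapy.

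TRBV24-1 (ENSG00000211750, chromosome 7: 142656701 to 142657213) was higher in the responder at both times by a similar ratio. It held 1074 counts in the responder and 110 in the non-responder after therapy, and 1750 in the responder and 140 in the non-responder before therapy. In shares this was 2.25% (2.13 to 2.39) in the responder and 0.401% (0.333 to 0.483) in the non-responder after therapy, and 3.45% (3.30 to 3.62) in the responder and 0.492% (0.417 to 0.581) in the non-responder before therapy. The responder libraries did not overlap with the non-responder libraries, and the ratios were 5.63-fold after and 7.01-fold before therapy.

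TRBV16 held 361 counts in the responder and 15 in the non-responder after therapy, and 62 in the responder and 0 in the non-responder before therapy. Its share was 13.9-fold higher in the responder after therapy. Before therapy it was 11.6-fold higher when the floor of 3 counts was taken for the non-responder library. The counting interval of that ratio before therapy started at 3.19 on the log2 scale. TRBV12-5 had 184 counts in the responder and 43 in the non-responder after therapy, and 67 in the responder and 1 in the non-responder before therapy. Its log2 ratio of shares was 1.30 after therapy (interval 0.82 to 1.82) and 5.23 before therapy (2.70 to 10.56). TRBV16 and TRBV12-5 were rare in every library, at under 1% of counts.

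TRBV30, the inverted segment at the far end of the locus, held 2.26% in the responder and 0.685% in the non-responder after therapy, and 1.85% in the responder and 1.07% in the non-responder before therapy. TRBV11-3 held 0.174% in the responder and 0.0729% in the non-responder after therapy, and 0.134% in the responder and 0.0739% in the non-responder before therapy. Both segments, picked for a higher responder share at both times, had higher shares in each responder library than in either non-responder library. TRBV9 did too, at 4.18% in the responder and 3.11% in the non-responder after therapy, and 4.81% in the responder and 3.21% in the non-responder before therapy; it is named here after its values were seen.

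In the other direction, TRBV23-1, listed as an open reading frame only, held 0.695% in the responder and 2.55% in the non-responder after therapy, and 1.57% in the responder and 3.60% in the non-responder before therapy. Its share was 3.66-fold lower in the responder after therapy and 2.29-fold lower before it. TRBV15 held 0.506% in the responder and 1.11% in the non-responder after therapy, and 0.521% in the responder and 1.01% in the non-responder before therapy. TRBV10-2 held 0.258% in the responder and 0.372% in the non-responder after therapy, and 0.221% in the responder and 0.594% in the non-responder before therapy. For TRBV23-1, TRBV15 and TRBV10-2, which were picked for a lower responder share at both times, each responder share lay below both non-responder shares. On the CPM scale the groups overlapped for each of them. TRBV23-1, for example, had 9.61 CPM in the responder before therapy against 6.26 CPM in the non-responder after therapy.

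Among the 39 of the 57 segments with at least 50 counts in a library of each pair, 22 had the responder on the same side at both times and 17 changed side. By share, TRBV24-1, TRBV16 and TRBV12-5 passed 2-fold upward in the responder at both times, and TRBV23-1 downward. TRBV6-6, TRBV5-6, TRBV7-7 and TRBV29-1 were at least 2-fold apart in opposite directions. None of these counts was made over all genes, so they do not set the TRBV segments apart. TRBV6-6 held 0.722% in the responder and 2.72% in the non-responder after therapy, and 2.80% in the responder and 0.457% in the non-responder before therapy.

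**Figure D4:**
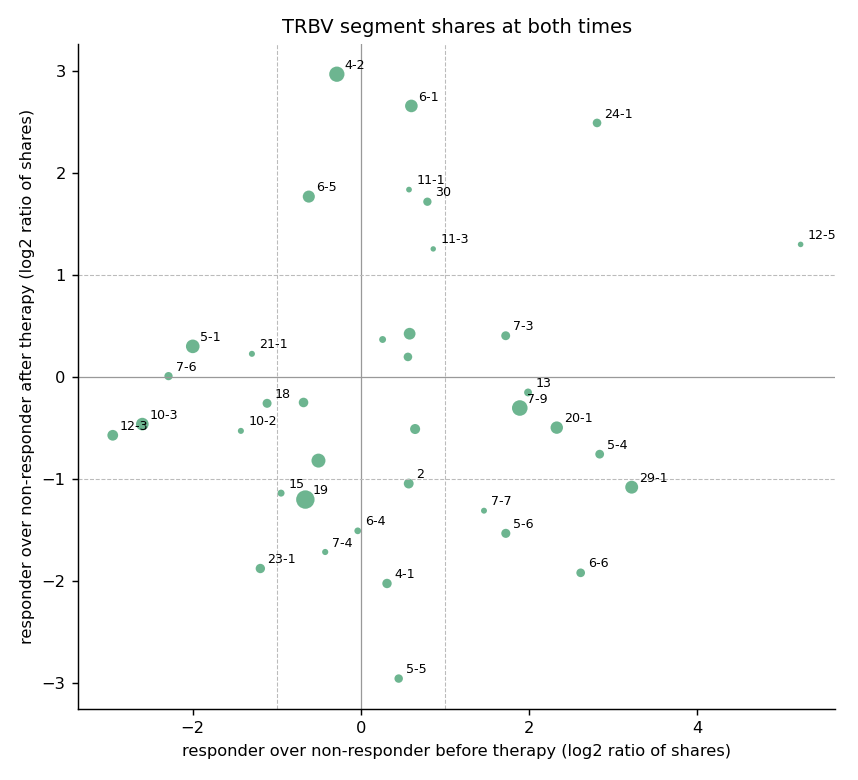
Log2 ratio of a segment's share in the responder over that in the non-responder, before therapy (horizontal) and after therapy (vertical), for 38 segments with at least 50 counts in a library of each pair. TRBV16 had 0 counts in the non-responder before therapy and is not drawn. Point area grows with the mean share, dashed lines mark 2-fold, and names lack the prefix TRBV. TRBV24-1 stands at 2.49 after and 2.81 before therapy, while TRBV4-2 stands at 2.97 after and -0.29 before, and TRBV29-1 at -1.08 after and 3.22 before.

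Among segments with at least 200 counts, 2 of those with the largest share ratios had the responder above the non-responder in both pairs. TRBV16 had the largest ratio after therapy, 13.9-fold, and held 62 against 0 counts before it. TRBV24-1 stood at 5.63-fold after and 7.01-fold before therapy. The segments named next did not keep a ratio of similar size and direction at the other time. After therapy, TRBV4-2 was 7.84-fold and TRBV6-1 6.32-fold higher in the responder by share, while TRBV5-5 was 7.74-fold and TRBV4-1 4.06-fold lower. TRBV5-5 held 0.544% in the responder and 4.21% in the non-responder after therapy, and 0.851% in the responder and 0.623% in the non-responder before therapy. Before therapy, TRBV29-1 was 9.33-fold and TRBV5-4 7.17-fold higher in the responder, and TRBV12-3 was 7.74-fold, TRBV10-3 6.06-fold and TRBV7-6 4.88-fold lower. TRBV5-4 held 1.17% in the responder and 1.98% in the non-responder after therapy, and 3.38% in the responder and 0.471% in the non-responder before therapy.

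Libraries from after therapy were then set against those from before it, within responders and within non-responders. These comparisons use the same 4 libraries as the ones above. In the responder, TRBV6-1 had a 16.7-fold higher share after therapy than before, TRBV16 a 6.19-fold and TRBV4-2 a 4.58-fold higher one. TRBV7-3 was 6.07-fold, TRBV13 5.05-fold and TRBV6-6 3.88-fold lower. TRBV13 held 0.575% in the responder after therapy and 2.90% in the responder before therapy, against 0.638% in the non-responder after therapy and 0.732% in the non-responder before therapy. In the non-responder, TRBV5-6 was 7.90-fold, TRBV3-1 7.51-fold and TRBV5-5 6.76-fold higher after therapy, and TRBV10-3 was 7.99-fold, TRBV12-3 5.19-fold and TRBV5-1 3.97-fold lower.

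TRBV3-1 moved the same way in both, with 3.51% in the responder and 4.99% in the non-responder after therapy, and 1.04% in the responder and 0.665% in the non-responder before therapy. TRBV3-1, TRBV6-1, TRBV12-5 and TRBV16 were at least 2-fold higher after therapy in both the responder and the non-responder, although TRBV12-5 and TRBV16 had 1 and 0 counts in the non-responder before therapy. TRBV7-3 and TRBV27 were at least 2-fold lower after therapy in both. TRBV4-2, TRBV5-4, TRBV6-6 and TRBV29-1 were at least 2-fold apart in opposite directions.

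On the CPM scale the libraries from after therapy were mostly lower. In the responder 5 of 42 TRBV rows were at least 2-fold higher after therapy, against 12.7% of all genes, and 20 were lower, against 12.4%. In the non-responder 11 of 40 were higher, against 22.9% of all genes, and 21 were lower, against 13.7%. By share of the 57 segments, 6 were higher and 9 lower in the responder, and 12 higher and 12 lower in the non-responder. The row of the constant gene TRBC2 spans 131972 bases, chromosome 7: 142670777 to 142802748, and overlaps the models of TRBV25-1 and TRBV28, so its counts are not a separate measure of the constant region. It was lower after therapy as well, with 937 CPM in the responder after therapy against 1782 CPM before it, and 610 CPM in the non-responder after therapy against 1031 CPM before it. The monocyte markers moved the opposite way, as given above, and their part in the lower CPM was not tested. Other T cell receptor complex genes were mixed. CD8A and CD3E were higher after therapy in both the responder and the non-responder, and CD3D, CD3G and CD247 were lower in both. TRAC and CD8B were higher in the responder, CD8B barely, and lower in the non-responder.

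Segments of 1 family resemble each other, so the family sums are the firmer values where reads could be divided between copies. The sums cover chromosome 7 rows only, 2 for TRBV4, 6 for TRBV6 and 7 for TRBV7. A family member without such a row is not in them. The 59 rows form 32 families, 8 of them with several rows. The TRBV6 family held 24.3% in the responder and 8.75% in the non-responder after therapy, and 6.22% in the responder and 4.67% in the non-responder before therapy. TRBV6-4 held 0.397% to 1.13%, while TRBV6-7 and TRBV6-8 had 13 counts or fewer in every library. The TRBV4 family held 18.6% in the responder and 6.75% in the non-responder after therapy, and 5.42% in the responder and 5.94% in the non-responder before therapy. The TRBV7 family was highest in the responder before therapy, at 21.2%, against 9.41% in the non-responder before therapy, with 6.84% in the responder and 8.47% in the non-responder after therapy. The TRBV10 and TRBV12 families held 13.9% and 12.1% in the non-responder before therapy, whereas their highest values elsewhere were 2.57% and 3.60%. The TRBV5 family sum kept a narrower range, at 6.89% in the responder and 13.4% in the non-responder after therapy, and 8.96% in the responder and 13.7% in the non-responder before therapy. Members of this family differed in opposite directions in the non-responder. TRBV5-1 held 3.02% after and 11.998% before therapy, while TRBV5-5 held 4.21% and 0.623%, and TRBV5-6 4.08% and 0.517%.

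MAIT cells, T cells that recognise microbial vitamin metabolites, mostly pair the alpha segment TRAV1-2 with TRBV6 segments or TRBV20-1. TRBV20-1 held 3.70% in the responder and 5.21% in the non-responder after therapy, and 7.17% in the responder and 1.42% in the non-responder before therapy. TRAV1-2 had 12.9 CPM in the responder after therapy, 10.8 CPM in the non-responder after therapy, 25.03 CPM in the responder before therapy, then 3.72 CPM in the non-responder before therapy. TRBV20-1, TRAV1-2 and the MAIT marker SLC4A10 were each highest in the responder and lowest in the non-responder before therapy. The other MAIT markers on the list were ordered differently. KLRB1 was highest in the non-responder after therapy, at 101 CPM, and ZBTB16 in the non-responder before therapy, at 25.2 CPM. For the responder, the 4 MAIT markers summed to 84.9 CPM after therapy and 142 CPM before it. The non-responder sums were 147 and 81.9 CPM at those times. The part of MAIT cells in the use of these segments was not tested.

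Segments listed as functional held 98.9% of the counts of the 57 segments in the responder and 97.0% in the non-responder after therapy, and 98.0% in the responder and 94.7% in the non-responder before therapy. Pseudogenes held 0.357% in the responder and 0.426% in the non-responder after therapy, and 0.414% in the responder and 1.46% in the non-responder before therapy. In the last library TRBVB had 100 counts, TRBV1 76 and TRBV21-1 197, and TRBVB had at most 2 counts elsewhere; these 3 pseudogenes were chosen after their values were seen. TRBV8-1, TRBV8-2, TRBV17, TRBV22-1 and TRBVA had 0 counts in all 4 libraries, and 8 of the 57 segments had counts in some libraries and 0 in others.

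Across 38 functional segments upstream of the constant genes, TRBV25-1 and TRBV28 left out, Spearman's rho between position and counts per length was -0.02 in the responder and -0.07 in the non-responder after therapy, and 0.18 in the responder and 0.07 in the non-responder before therapy. Segments of 1 library share its total and are not independent points. The stretch from TRBV18 to TRBV29-1 held 21.8% in the responder and 39.3% in the non-responder after therapy, and 36.0% in the responder and 29.9% in the non-responder before therapy.

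The difference in use between 2 libraries was also measured as the share of counts that would have to move to another segment for the libraries to match. It was 42.2% between the responder libraries of both times and 45.8% between the non-responder libraries. It was 40.8% between responder and non-responder after therapy and 45.5% before therapy. The largest value, 49.0%, lay between the responder after and the non-responder before therapy, and the smallest, 34.9%, between the non-responder after and the responder before therapy. The 4 pairs that shared response or time thus lay between the 2 pairs that shared neither. The 6 values come from only 4 libraries.

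Downstream in the same chain lie the joining segments, of which the second cluster has 8 rows in the files. TRBJ2-1 held 22.9% of the TRBJ2 counts in the responder and 28.6% in the non-responder after therapy, and 46.8% in the responder and 26.3% in the non-responder before therapy. TRBJ2-3 held 26.1% in the responder and 18.2% in the non-responder after therapy, and 14.998% in the responder and 24.0% in the non-responder before therapy. Joining use was least even in the responder before therapy, with a Pielou index of 0.799, against 0.908 to 0.929 in the other libraries. By the same index that library had the most even use of the 57 TRBV segments, whereas by the share of the 5 most used segments the non-responder after therapy did. The alpha chain segments, 54 rows on chromosome 14, were least even in the responder after therapy, as the 57 TRBV segments were. Their index was 0.732 in the responder and 0.822 in the non-responder after therapy, and 0.879 in the responder and 0.849 in the non-responder before therapy.

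The additive model fitted response and time together over the 4 libraries and 24186 genes, with 1 residual degree of freedom. Of the 59 TRBV rows 46 passed the filter on low counts, and edgeR's quasi-likelihood test with Benjamini-Hochberg adjustment called 0 of them for response and 0 for time, against 0% of all genes for each. At an unadjusted p under 0.05 there were 6 of the 46 for response and 12 for time, and 2154 and 2742 of all genes. TRBV24-1 had the lowest p of the members for response, with a log2 ratio of 3.22 ± 0.41 (SE, edgeR adjusted p = 0.549), higher in the responder in both pairs. TRBV6-1 stood at 2.21 ± 0.68 (edgeR adjusted p = 0.551). For time, TRBV27 stood at -1.97 ± 0.27 and TRBV7-3 at -2.70 ± 0.51 (edgeR adjusted p = 0.408 for both), lower after therapy in both pairs.

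DESeq2 on the same design called TRBV24-1, TRBV6-1 and TRBV16 higher in the responder, 3 of the 43 members it tested, against 4.59% of all genes. For time it called 9 of 43 members, against 7.6% of all genes. TRBV6-1 was higher after therapy, and TRBV7-3, TRBV10-3, TRBV12-3, TRBV12-4, TRBV23-1, TRBV25-1, TRBV27 and TRBV28 were lower. TRBV6-1, called for both terms, was high only in the responder after therapy, at 54.5 CPM against 2.44 to 5.62 CPM elsewhere. Its responder level before therapy, 5.29 CPM, lay below the 5.62 CPM of the non-responder after therapy. The non-responder before therapy was the high library for TRBV12-3, at 36.1 CPM against 4.00 to 6.66 CPM elsewhere. The DESeq2 log2 ratio of TRBV24-1 for response was 3.18 ± 0.51 (DESeq2 adjusted p = 2.7e-07). The model takes the libraries of a response group as replicates, and no label says whether they come from different patients. That p-value therefore does not measure spread between patients. limma-voom called 0 members for response or time, against 0 and 2 of all 24186 genes.

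On the CPM scale, both responder libraries lay above both non-responder libraries for 11 of the 46 TRBV rows, against 20.3% of all genes, and below for 3, against 16.6%. Both libraries from after therapy lay above both from before it for 3 rows, against 22.2% of all genes, and below for 19, against 20.7%. TRBV2, TRBV3-1 and TRBV6-1 were the 3 rows higher after therapy, TRBV2 being named after its values were seen. For TRBV2 the responder values were nearly equal, at 8.95 CPM after therapy and 8.91 CPM before it.

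The other parts of the receptor were measured from lists. None of the 8 genes of the receptor complex list (CD3D, CD3E, CD3G, CD247, TRAC, TRBC2, CD8A and CD8B) was called for response or time by edgeR. It called 0% of all genes for either term, so this does not set the list apart. TRAC, the alpha constant gene, had 1299.5 CPM in the responder after therapy, 560 CPM in the non-responder after therapy, 1124 CPM in the responder before therapy, then 613 CPM in the non-responder before therapy. Of the 12 genes that cut or rejoin receptor segments, 11 were tested and 0 called, again against 0% of all genes. RAG1 and RAG2, the recombinase genes of developing lymphocytes, lay at 0.0179 to 1.15 CPM, and DNTT, which adds bases at the joins, had counts in 1 library. XRCC5 and XRCC6, which encode the Ku proteins of general DNA repair, lay between 248 and 613 CPM.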

How the data were processed

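From each sort, 1 ng of RNA was copied to cDNA (SMARTer Ultra Low kit) and read as 101-base pairs, per the labels' protocols. The authors converted base calls with bcl2fastq 1.8.4 and aligned with TopHat2 to hg38, per the submitters' processing notes. How reads were assigned to genes is not given in the sources used here, including the tool, the strand setting, the annotation release and the treatment of reads shared by genes. The deposited values are raw counts per Ensembl gene, and the deposited coding lengths are in bases.

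Of 64253 rows, 4146 on other contigs and 617 that could mark sex were left out of fits, leaving 59490. Shares and evenness used raw counts, with Wilson, exact conditional binomial or large-sample counting intervals at 95%. CPM used TMM factors. The fits used R 4.3.3, edgeR 4.0.16, DESeq2 1.42.0 and limma 3.58.1; the SE of an edgeR ratio is its size divided by the square root of F, and 0.5 was added to counts when 2-fold calls were made. The additive fit had response and time as terms. Alternatives were DESeq2 and its size factors, limma-voom, other count filters, TRBV rows of all contigs, shares in place of CPM, counts per length, functional segments only and family sums. Functional status of segments is general knowledge, not from the files.

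Members, lists and naming rule were chosen with earlier results of these data known. Named segments were the 10 with the largest mean share, up to 5 per direction that differed by response at both times (at least 50 counts), the 3 per direction with the largest share ratio in each comparison (at least 200 counts), TRBV20-1 and the TRBV6 family. Setting TRBV25-1 and TRBV28 apart was chosen after seeing the data.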

Additional observations from a re-analysis of the deposited data

Results flagged for a closer look

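Over the 57 segments, evenness after minus before therapy was -0.0440 in the responder and 0.0305 in the non-responder, opposite directions whose difference was not tested. By response, 4 segments were at least 2-fold apart in opposite directions at the 2 times, which was likewise not tested. The log2 ratio of shares, responder over non-responder, was -1.92 after and 2.62 before therapy for TRBV6-6, -1.53 and 1.72 for TRBV5-6, -1.31 and 1.47 for TRBV7-7, and -1.08 and 3.22 for TRBV29-1. By time, 4 segments were at least 2-fold apart in opposite directions in the responder and the non-responder, not tested either. Neither count was made over all genes. The log2 ratio after over before therapy was 2.20 in the responder and -1.06 in the non-responder for TRBV4-2, -1.53 and 2.07 for TRBV5-4, -1.96 and 2.58 for TRBV6-6, and -1.67 and 2.63 for TRBV29-1.

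Rows outside the comparisons also held reads. The 8 TRBV rows on chromosome 9 are copies of segments away from the receptor locus. Summed, they had 9 counts in the responder and 4 in the non-responder after therapy, and 55 in the responder and 8 in the non-responder before therapy.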

How the results depend on the processing

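Leaving out TRBV25-1 and TRBV28, a choice made after seeing the data, turned the evenness difference between responder and non-responder after therapy from 0.0211 to -0.0400 (functional segments -0.0375, families -0.0387) and that between after and before therapy in the responder from 0.00733 to -0.0440 (-0.0441 and -0.0529). It left the responder minus non-responder difference before therapy, 0.0609 over all rows, at 0.0344 (0.0534 and 0.0219) and the non-responder time difference, 0.0471 over all rows, at 0.0305 (0.0469 and 0.0078). Among all 59 rows, functional segments alone gave 0.0273 and 0.0731 for response after and before therapy and 0.0103 and 0.0561 for time in the responder and the non-responder. Counts per length gave 0.0040, 0.0654, -0.00398 and 0.0574 in that order. Without each library's largest segment, response gave 0.0179 and 0.0756 and the non-responder time difference 0.0663. With only detected segments in the denominator, response before therapy gave 0.0524 and time in the responder 0.0176, and family sums gave 0.0435 for time in the non-responder. DESeq2 called 3 of 43 members for response and 9 for time, against 4.59% and 7.6% of all genes. With edgeR it was 0 members, against 0% of all genes. Counts of rows at least 2-fold lower in the responder were 5 after therapy, against 9 by share of TRBV counts, 9 with no filter and 12 by share of the 57, and 6 before therapy, against 11 with no filter and 10 by share of the 57. Rows at least 2-fold higher before therapy were 21, against 13 by share of the 57. Rows lower after therapy were 20 in the responder, against 9 by either share, and 21 in the non-responder, against 9 by share of TRBV counts and 12 by share of the 57. The cause of these shifts was not tested, apart from the 2 rows left out by construction. No paired analysis was possible because each group holds 1 library and no label ties a library to a patient. Leaving out a library would leave the additive model no residual degree of freedom. The 27451 to 50672 counts of the 57 segments set the counting error only; spread between patients was not measured.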
